A study of Mus musculus with 4 samples.

Results

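Cadherins and protocadherins of the mouse hypothalamus were described over cell classes and neuron groups in single-nucleus RNA profiles. The members were all genes whose symbol is Cdh or Pcdh followed directly by digits, with 10 or more unique molecular identifiers (UMIs, counts of distinct RNA molecules) over the 2 control-labelled matrices. Of 34 such symbols among 32285 genes, 26 were members, and levels played no other part in the choice. They were 2 type I classical cadherins, 12 type II cadherins, Cdh13 and Cdh23 among other Cdh genes, 3 delta-1 protocadherins, 5 delta-2 protocadherins and Pcdh15 and Pcdh20 among other protocadherins. Pcdh18 was the lowest member at 66 UMIs, and Cdh15 was the highest symbol left out, at 9. The others left out were Cdh5 and Cdh26 (3 UMIs each), Cdh1 (2), Cdh3, Cdh16 and Cdh17 (1 each) and Pcdh12 (0). The samples were frozen whole hypothalami of aged mice of about 18 months, from animals that had received hypothalamic stem cells made from human pluripotent stem cells (labelled transplanted, 2 samples) or had not (labelled control, 2 samples). The labels give neither strain nor sex. In each group 1 of the 2 titles joins 2 codes, and whether animals were pooled is not stated. The matrices under both labels held the same nuclei, so 2 distinct libraries stand behind every value, called library 1 and library 2 and read from the control-labelled matrices. Whether these nuclei came from transplanted or untreated animals therefore cannot be told. Nothing says that they came from separate animals, so p-values do not measure a spread between animals. Where the library was a block, they rest on how far differences between classes or groups varied between these 2 libraries.

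Classical cadherins are calcium-dependent adhesion proteins that bind like partners on the next cell and hold the actin skeleton through catenins on their inner side. Type II cadherins lack the type I recognition motif and are known for labelling brain nuclei and circuits in different combinations. Nonclustered protocadherins have longer outer parts, adhere weakly, and in their delta-2 branch bind the WAVE complex that drives actin branching. Cdh13 has no inner part and sits in the membrane by a lipid anchor. Cdh23 and Pcdh15 are best known as the tip link of inner ear hair cells, in mouse and human.

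Promoters are shown for 5 members whose class patterns the results turn on: Cdh20 (glia) and Cdh7 (neurons), both type II genes of chromosome 1, Pcdh9 (oligodendrocytes), Pcdh15 (oligodendrocyte precursors) and Cdh23 (microglia), its partner in the ear. Each is the RefSeq sequence of build GRCm38.p6 from 250 bases before to 50 after a start, 5′ to 3′, first start listed. Capitals mark each match to CANNTG, the E-box bound by basic helix-loop-helix factors, which reads the same on both strands.
Cdh20 chr1:104768270-104768569 (+ strand): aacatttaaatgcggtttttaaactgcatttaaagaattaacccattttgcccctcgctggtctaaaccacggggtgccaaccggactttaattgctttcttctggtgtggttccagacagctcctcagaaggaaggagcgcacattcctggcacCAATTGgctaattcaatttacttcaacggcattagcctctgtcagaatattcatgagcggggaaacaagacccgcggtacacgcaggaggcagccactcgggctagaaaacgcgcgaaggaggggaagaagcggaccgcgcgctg
Cdh7 chr1:109982650-109982949 (+ strand): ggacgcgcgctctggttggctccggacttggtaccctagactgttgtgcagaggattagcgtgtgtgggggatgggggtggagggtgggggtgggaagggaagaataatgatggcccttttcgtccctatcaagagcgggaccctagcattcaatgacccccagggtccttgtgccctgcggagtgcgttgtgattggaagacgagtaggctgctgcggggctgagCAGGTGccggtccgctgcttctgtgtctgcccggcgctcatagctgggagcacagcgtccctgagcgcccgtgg
Pcdh9 chr14:93890630-93890929 (- strand): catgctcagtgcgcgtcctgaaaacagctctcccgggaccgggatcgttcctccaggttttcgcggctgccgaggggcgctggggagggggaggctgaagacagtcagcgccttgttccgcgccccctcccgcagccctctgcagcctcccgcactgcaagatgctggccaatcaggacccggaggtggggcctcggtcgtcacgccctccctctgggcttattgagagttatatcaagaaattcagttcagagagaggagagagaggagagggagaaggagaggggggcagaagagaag
Pcdh15 chr10:73821617-73821916 (+ strand): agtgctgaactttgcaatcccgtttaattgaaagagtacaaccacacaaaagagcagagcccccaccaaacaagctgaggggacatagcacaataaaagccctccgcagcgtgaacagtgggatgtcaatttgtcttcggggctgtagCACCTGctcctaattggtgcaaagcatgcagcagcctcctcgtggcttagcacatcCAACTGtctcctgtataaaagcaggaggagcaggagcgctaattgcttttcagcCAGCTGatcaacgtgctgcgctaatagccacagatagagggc
Cdh23 chr10:60696441-60696740 (- strand): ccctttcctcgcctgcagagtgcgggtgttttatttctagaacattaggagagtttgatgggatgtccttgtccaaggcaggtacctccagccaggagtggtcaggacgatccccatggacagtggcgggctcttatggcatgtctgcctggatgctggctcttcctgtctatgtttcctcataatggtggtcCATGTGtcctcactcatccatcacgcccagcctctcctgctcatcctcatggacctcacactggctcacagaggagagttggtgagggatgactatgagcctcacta
Pcdh15 held 3 matches, Cdh20, Cdh7 and Cdh23 held 1 each, and Pcdh9 held 0. RefSeq promoters were listed for 20 of the 26 members (23 starts), and 14 of these 23 (60.9%) held the motif, against 72.3% of all 32851 promoters of the same length. CG pairs numbered 18 in the Cdh20, Cdh7 and Pcdh9 promoters, 8 in Pcdh15 and 5 in Cdh23, beside a median of 18 over the members' promoters and 7 over all promoters. Cdh20 and Cdh7 had equal numbers of E-boxes and CG pairs in these windows, while Cdh20 was high in glia and Cdh7 in neurons.

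The 2 control-labelled matrices held 4008 and 2150 nuclei with 8779880 and 4924563 UMIs, of which the members took 1.15% and 1.09%. Clustering without any Cdh or Pcdh gene, and naming by markers, gave neuron-like nuclei (2961 in library 1 and 1453 in library 2), astrocyte-like (320 and 199), tanycyte-like (114 and 43), oligodendrocyte-like (370 and 284), oligodendrocyte precursor-like (136 and 72) and microglia-like nuclei (66 and 46), written below without that ending. Another 46 nuclei stayed unnamed. The median nucleus held 2252 and 2596 UMIs in neurons and between 668 and 1196 in the glial classes, so a low level is less precise in glia. Each class carried most of its own markers: all 12 neuron, 12 astrocyte, 14 oligodendrocyte, 12 precursor and 14 microglia markers had UMIs in their class, and of 12 tanycyte markers only Adm was at 0. The names came from these lists, and neurons had UMIs of every astrocyte, oligodendrocyte, precursor and microglia marker. Such counts therefore do not test the names. In tanycytes the 8 ependymal markers summed to 489.9 and 312 CPM (counts per 1000000 UMIs of a class or group in a library), against 41.5 and 32.0 CPM in neurons. Each class had the highest sum of its own list in both libraries. Microglia markers, for example, summed to 10181 and 13465 CPM in microglia, against 150 and 161 CPM in neurons. RNA of broken cells can leak into nuclei, and doublets (nuclei that share a barcode) can add neuron RNA to glia in the same way. These sources were not told apart, and RNA from either is called leaked below. For 9 genes known for their use in neurons, the median share of the neuron level was 24.5% (library 1) and 11.9% (library 2) in astrocytes. It was 19.5% and 3.28% in tanycytes, 9.94% and 5.30% in precursors, 8.55% and 3.38% in oligodendrocytes and 26.5% and 10.6% in microglia. Single genes of the 9 ran up to 33.1% in astrocytes, 51.5% in tanycytes, 118% in precursors, 44.0% in oligodendrocytes and 78.2% in microglia, so the medians are rough guides. Of the 9, Gad1 was itself called higher in precursors than in the other classes, so it may not gauge leaked RNA there. A member at or under the median share is read as background.

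No member differed between the labels. Members' log2 differences, transplanted minus control, lay between -0.19 and 0.14. edgeR's quasi-likelihood test called 0 of 17301 genes (0% of all), with 3 genes and 0 members at an unadjusted p under 0.05, and DESeq2 also called 0. Transplanted-labelled replicate 1 shared 3997 of its 4020 barcodes with control-labelled replicate 1, and replicate 2 shared 2144 of 2151 with control-labelled replicate 2. Between those paired matrices the members' squared differences averaged 0.204 and 0.265 of what sampling alone would give, against 50.3 between the 2 libraries. These values compare deposits of the same nuclei and say nothing of transplantation.

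Of the 26 members, 23 differed between the 6 cell classes by edgeR's quasi-likelihood test with the library as a block, beside 39.4% of all 17301 genes tested. Type II Cdh19 and Cdh20 were high in glia and low in neurons, Pcdh9 peaked in oligodendrocytes, Pcdh15 in their precursors and Cdh23 in microglia, while Cdh4, Cdh12, Cdh18, Cdh7 and Cdh9 were high in neurons. Each class was then compared, on the log2 scale, with the mean of the 5 others, with p-values adjusted over all genes per class. This gave 76 member calls of 156 (48 higher and 28 lower), beside 12.4% of all such gene and class pairs. All 76 had the same sign in each library taken alone. The calls were made on these same 2 libraries, so this is no independent check. Because the average runs over classes on the log scale, a class with few or no UMIs of a gene lifts the others, so a call can stand for a class that is not above the others pooled. Each test used 1 sum of UMIs per class and library.

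**Figure D1:**
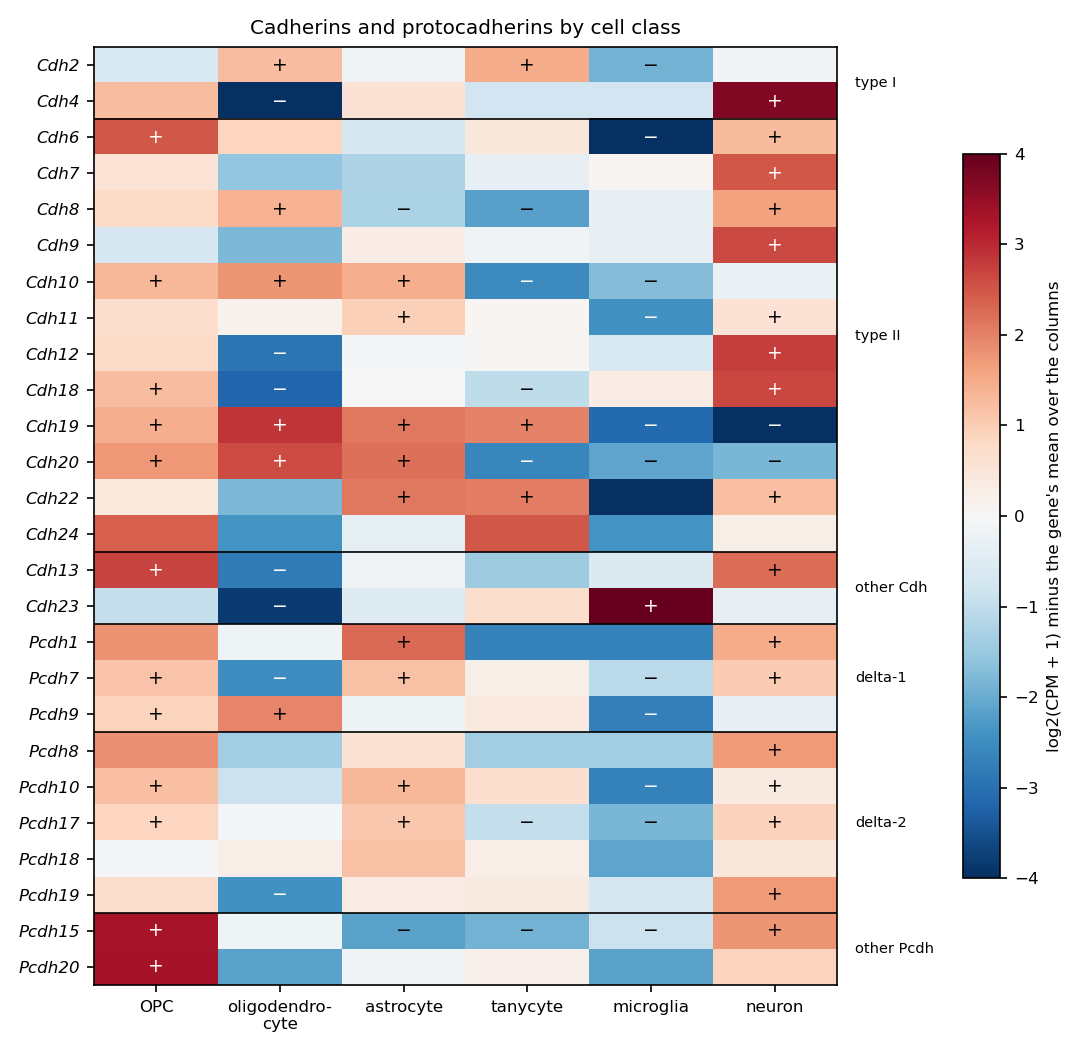
Colour gives log2(CPM + 1) of each member in each cell class (mean of 2 libraries) minus that member's mean over the 6 classes, with members grouped by family in rows and classes in columns, where OPC stands for oligodendrocyte precursor. A plus or minus marks a class called higher or lower than the average of the others. Cdh19 and Cdh20 are high over the oligodendrocyte, precursor and astrocyte columns, and the microglia column holds 1 plus and 11 minus signs.

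Cdh19 and Cdh20, type II cadherins, were the only 2 members called lower in neurons than in the other classes. Cdh19 stood at 598 and 560.0 CPM in oligodendrocytes of libraries 1 and 2, 311 and 379 CPM in astrocytes, 291 and 351 CPM in tanycytes, 224 and 214 CPM in precursors, 16.6 and 0 CPM in microglia and 0.518 and 1.68 CPM in neurons. Both libraries of the first 4 classes lay above both neuron values, which rest on 4 and 7 UMIs. The log2 difference was 3.80 ± 0.25 (SE) in oligodendrocytes (adjusted p = 1.07e-48), 2.84 ± 0.29 in astrocytes (adjusted p = 2.73e-21), 2.21 ± 0.38 in tanycytes (adjusted p = 3.50e-07) and 2.02 ± 0.37 in precursors (adjusted p = 1.81e-06). In neurons it was -6.96 ± 1.30 (adjusted p = 9.96e-07). The gene has been tied to the migrating Schwann cell lineage in mouse and rat. After each nucleus was thinned to 500 UMIs, 21.1% and 23.2% of oligodendrocytes carried a Cdh19 UMI, against 0% and 0.206% of neurons (unthinned 28.6% and 31.0%, against 0.101% and 0.482%).

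Cdh20 followed the same glial classes except tanycytes. It stood at 1368 and 1253 CPM in oligodendrocytes, 979 and 1033 CPM in astrocytes, 750.1 and 682 CPM in precursors, 49.8 and 19.5 CPM in tanycytes, 99.5 and 0 CPM in microglia and 56.8 and 62.3 CPM in neurons. Oligodendrocytes were 24.1- and 20.1-fold above neurons in libraries 1 and 2, astrocytes 17.2- and 16.6-fold and precursors 13.2- and 10.9-fold. The calls were 3.26 ± 0.26 log2 in oligodendrocytes (adjusted p = 2.32e-33), 2.75 ± 0.27 in astrocytes (adjusted p = 4.67e-22) and 2.10 ± 0.30 in precursors (adjusted p = 3.07e-10). Tanycytes (-3.32 ± 0.57, adjusted p = 5.82e-07), microglia and neurons (-1.94 ± 0.36, adjusted p = 6.55e-07) were lower. Tanycytes thus shared Cdh19 with the other macroglia but held 6 and 1 Cdh20 UMIs. At 500 UMIs per nucleus, 43.5% and 44.7% of oligodendrocytes carried a Cdh20 UMI, against 2.30% and 2.68% of neurons (unthinned 56.2% and 55.6%, against 8.88% and 11.4%). Cdh7, on the same chromosome, ran the other way, with 86.0 and 100.1 CPM in neurons, against 10.7 and 10.6 CPM over the other classes pooled.

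Oligodendrocytes carried 6 members higher (8.73% of all genes) and 7 lower (5.42%). Pcdh9, a delta-1 protocadherin, stood at 14121 and 13474 CPM in oligodendrocytes, 6430.1 and 6822 CPM in precursors, 5082 and 4353 CPM in tanycytes, 2988 and 3224 CPM in astrocytes, 912 and 157 CPM in microglia and 2909.8 and 2802 CPM in neurons. Oligodendrocytes lay 4.85- and 4.81-fold above neurons, with a log2 difference from the other classes of 2.56 ± 0.34 (adjusted p = 1.10e-12). Precursors were higher by 1.19 ± 0.37 (adjusted p = 0.0202). The type II gene Cdh10 stood at 1408 and 902 CPM in oligodendrocytes, 1025 and 815 CPM in astrocytes, 1045 and 631 CPM in precursors, 74.7 and 39.0 CPM in tanycytes, 199 and 0 CPM in microglia and 294 and 266 CPM in neurons. It was called higher in oligodendrocytes (2.29 ± 0.26, adjusted p = 1.84e-16), astrocytes (1.88 ± 0.27, adjusted p = 2.20e-10) and precursors (1.62 ± 0.29, adjusted p = 9.72e-07), and lower in tanycytes (-3.36 ± 0.50, adjusted p = 2.72e-09). In both libraries every one of the 3 higher classes lay above every neuron and tanycyte value. Cdh2, N-cadherin, the main neural type I cadherin, stood at 1412 and 1288 CPM in tanycytes and 1346 and 935 CPM in oligodendrocytes, against 445 and 437 CPM in neurons. Both classes were called (tanycytes 1.47 ± 0.28, adjusted p = 7.56e-06, and oligodendrocytes 1.71 ± 0.25, adjusted p = 4.87e-10), and astrocytes, at 460.5 and 419 CPM, were not. Cdh8 was also higher in oligodendrocytes (328 and 285 CPM, 1.73 ± 0.27, adjusted p = 2.88e-09), where it stood at 99.9% and 74.5% of its neuron level, above all 9 genes used to gauge leaked RNA.

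Members lower in oligodendrocytes than in the other classes were Cdh4, Cdh23, Cdh18, Cdh13, Cdh12, Pcdh19 and Pcdh7. Cdh4 and Cdh23 had 0 UMIs there in both libraries, where 3 counts would be 10.9 and 14.2 CPM. Pcdh7 stood at 171 and 104 CPM in oligodendrocytes, against 2058 and 1425 CPM in precursors, and its log2 difference from the other classes was -2.81 ± 0.40 (adjusted p = 1.07e-10). Cdh18 stood at 25.5 and 28.5 CPM in oligodendrocytes, against 679.6 and 499 CPM in precursors (-3.67 ± 0.48, adjusted p = 5.13e-13). Cdh13 had 1 and 4 UMIs in oligodendrocytes, against 67 and 67 in precursors (-3.37 ± 0.60, adjusted p = 3.81e-07). The direct difference between oligodendrocytes and precursors was not tested.

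**Figure D2:**
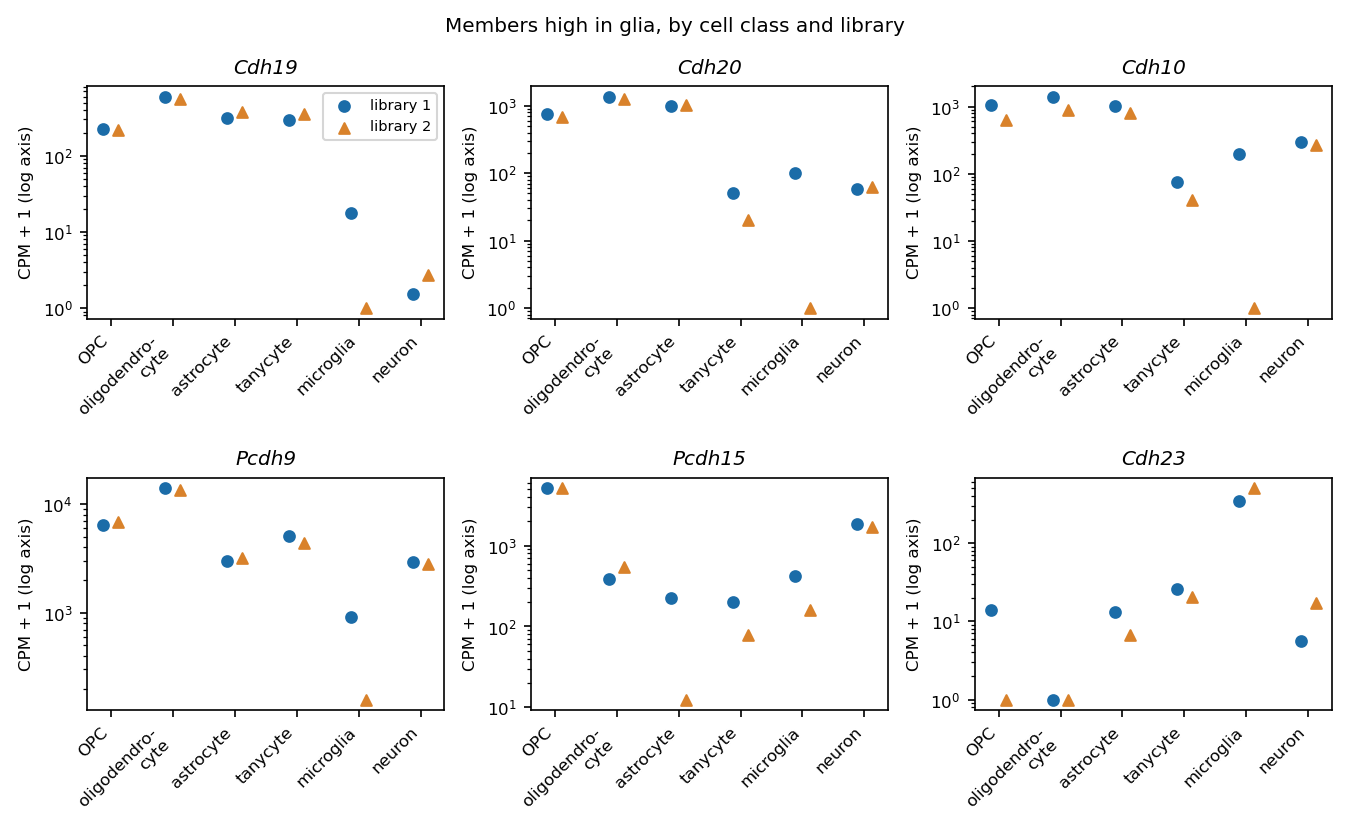
Each panel gives 1 member as CPM + 1 on a log axis, by cell class, with 1 point for library 1 (circle) and 1 for library 2 (triangle) and neurons at the right. Cdh19 and Cdh20 in oligodendrocytes lie far above neurons in both libraries, Pcdh15 is highest in oligodendrocyte precursors (OPC) and Cdh23 in microglia.

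Oligodendrocyte precursors carried 12 members higher (6.07% of all genes) and 0 lower (0.827%). Pcdh15 stood at 5090.2 and 5142 CPM in precursors, 390.2 and 536 CPM in oligodendrocytes, 415 and 157 CPM in microglia, 223 and 11.5 CPM in astrocytes, 199 and 78.1 CPM in tanycytes and 1822 and 1703 CPM in neurons. Precursors lay 2.79- and 3.02-fold above neurons, and their log2 difference from the other classes was 4.07 ± 0.27 (adjusted p = 7.84e-47). At 500 UMIs per nucleus, 87.5% and 90.3% of precursors carried a Pcdh15 UMI, against 44.5% and 41.9% of neurons and 1.88% and 0.503% of astrocytes (unthinned 98.5% and 97.2%, against 70.2% and 71.6% and 4.38% and 1.01%). The gene overlaps Gm15398 on the other strand, and the labels do not state whether counting used strand. Gm15398 stood at 442 and 428 CPM in precursors, against 415 and 443 CPM in neurons, and these values lay close together. Pcdh15 also overlaps Gm15397 on its own strand (0 UMIs in precursors, against 37 and 27 in neurons), and Cdh12 and Cdh8 overlap Gm49685 and Gm15680 on theirs, so reads shared by such pairs are uncertain even where strand was used.

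Other precursor members belonged to several families. Cdh13, T-cadherin, stood at 429.5 and 682 CPM in precursors, against 357 and 440.2 CPM in neurons (3.34 ± 0.29, adjusted p = 1.99e-27). The type II gene Cdh6 had 25 and 7 UMIs (160.3 and 71.3 CPM) in precursors, against 44.1 and 55.1 CPM in neurons (3.67 ± 0.62, adjusted p = 1.51e-07). Pcdh20 rested on 4 and 6 UMIs in precursors (25.6 and 61.1 CPM), against 4.54 and 9.87 CPM in neurons (5.02 ± 1.26, adjusted p = 0.00158). Of the glial classes, precursors had the most members called higher. Cdh18, at 39.5% and 34.7% of its neuron level, lay above the median leaked share there and inside the range of the 9 genes (1.65 ± 0.31, adjusted p = 3.17e-06). That range includes Gad1, itself called higher in precursors, so it is a weak guide for Cdh18. The remaining calls were Pcdh7, Pcdh10, Pcdh17, Pcdh9, Cdh10, Cdh19 and Cdh20, with log2 differences between 1.15 (Pcdh17) and 2.10 (Cdh20). Over the other classes pooled, Pcdh10 stood 1.62- and 1.93-fold as high in libraries 1 and 2 (115 and 163 CPM in precursors), Pcdh7 1.15- and 1.15-fold and Cdh18 0.429- and 0.385-fold. Pcdh17, at 314 and 224 CPM in precursors, against 293 and 254 CPM over the others (1.07- and 0.884-fold), was not above them in both libraries.

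Astrocytes carried 9 members higher (8.49% of all genes) and 2 lower (1.35%). Beside Cdh19, Cdh20 and Cdh10, the higher members were Pcdh1, Cdh22, Pcdh10, Pcdh7, Pcdh17 and Cdh11. Pcdh10, a delta-2 protocadherin, stood at 143 and 161 CPM in astrocytes, against 69.2 and 84.5 CPM in neurons (1.72 ± 0.33, adjusted p = 5.30e-06). Cdh22 had 11 and 18 UMIs in astrocytes (33.5 and 103 CPM), against 25.3 and 47.2 CPM in neurons (3.06 ± 0.71, adjusted p = 3.41e-04). Both astrocyte values of Pcdh10 lay above both neuron values, while those of Cdh22 overlapped. Pcdh7 stood at 2257 and 1279 CPM in astrocytes, against 1847 and 1306 CPM in neurons, and these values overlapped. Pcdh17 stood at 366 and 264 CPM in astrocytes, against 291 and 252 CPM over the other classes pooled (1.49 ± 0.27, adjusted p = 7.82e-07), and Cdh11 at 137 and 212 CPM, against 116 and 144 CPM (1.41 ± 0.33, adjusted p = 4.53e-04). Pcdh1 rested on 3 and 9 UMIs (3.73 ± 1.25, adjusted p = 0.0312), and scaling by totals alone ended the call (adjusted p = 0.0576). Pcdh15 (223 and 11.5 CPM, -2.39 ± 0.42, adjusted p = 2.71e-07) and Cdh8 (94.5 and 0 CPM, -1.22 ± 0.38, adjusted p = 0.0150) were lower. Cdh8 lost its call in 3 alternatives, among them the transplanted-labelled matrices (adjusted p = 0.125).

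Tanycytes, the glia that line the floor of the third ventricle, carried 3 members higher (4.31% of all genes) and 6 lower (1.5%). The higher members were Cdh22 (11 and 2 UMIs, 91.3 and 39.0 CPM, 3.08 ± 0.89, adjusted p = 0.0138), Cdh19 and Cdh2. Against the other classes pooled, Cdh22 stood 3.75- and 0.836-fold as high in libraries 1 and 2, and its level in library 2 lay under the floor of 58.6 CPM that 3 counts give. Cdh10 and Cdh20, shared by the other macroglia, were among the lower ones. Cdh8 (49.8 and 0 CPM, -2.63 ± 0.55, adjusted p = 7.78e-05), Pcdh15 (-2.55 ± 0.47, adjusted p = 4.36e-06), Cdh18 (149 and 97.6 CPM, -1.57 ± 0.45, adjusted p = 0.0121) and Pcdh17 (91.3 and 58.6 CPM, -1.42 ± 0.47, adjusted p = 0.0449) were the others. The calls of Cdh18 and Pcdh17 were each lost in 2 or more alternatives.

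Microglia carried 1 member higher (4.18% of all genes) and 11 lower (3.36%). Cdh23 had 21 and 16 UMIs in microglia (348 and 503 CPM), against 35 and 67 UMIs in neurons (4.54 and 16.1 CPM), and its log2 difference from the other classes was 5.79 ± 0.58 (adjusted p = 2.03e-21). Astrocytes, tanycytes and precursors stood at 12.2 and 5.74, 24.9 and 19.5 and 12.8 and 0 CPM, so both microglia values were the highest of all classes. At 500 UMIs per nucleus, 9.09% and 19.6% of microglia carried a Cdh23 UMI, against 0.135% and 1.17% of neurons (unthinned 27.3% and 28.3%, against 0.946% and 3.03%). On the other strand Cdh23 overlaps Vsir, an immune checkpoint gene of myeloid cells. Vsir stood at 149 and 535 CPM in microglia, against 0.518 and 1.20 CPM in neurons, so reads of the 2 genes cannot be told apart if strand was not used in counting. Pcdh15, the partner of Cdh23 in hair cells, was lower in microglia (415 and 157 CPM, -1.65 ± 0.46, adjusted p = 0.00640). The members furthest below the other classes with UMIs in microglia were Cdh11 (0 and 1 UMIs, -4.12 ± 0.91), Cdh19 (1 and 0 UMIs, -3.92 ± 0.98), Pcdh9 (55 and 5 UMIs, -3.82 ± 0.56), Pcdh10 (1 and 0 UMIs, -3.63 ± 0.98) and Cdh20 (6 and 0 UMIs, -2.84 ± 0.60). The other classes pooled held Cdh19 at 39.6 and 49.0 CPM, under the microglia floors of 49.7 and 94.4 CPM. They held Pcdh10 at 72.2 and 86.8 CPM, under the floor in library 2. Cdh20 in microglia of library 1, at 99.5 CPM, lay above neurons (56.8 CPM). Cdh6 had 0 UMIs, where 3 counts would be 49.7 and 94.4 CPM, and its call (adjusted p = 0.0476) was lost in 4 alternatives. Neuron markers summed to 7860 and 944 CPM in microglia of libraries 1 and 2, and Pcdh9 stood at 912 and 157 CPM there. Whether RNA of broken cells or doublets lay behind either difference was not tested.

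Neurons carried 17 members higher (27% of all genes) and 2 lower (3.48%). Cdh4, R-cadherin, stood at 149.5 and 265 CPM in neurons, against 20.2 and 10.6 CPM over the other classes pooled (5.22 ± 0.35, adjusted p = 1.41e-48). Of 5 type II members on chromosome 15, Cdh12, Cdh18 and Cdh9 were higher in neurons than over the pooled other classes in both libraries, Cdh6 in library 2 only and Cdh10 in neither (0.304- and 0.381-fold). Cdh12 stood at 441 and 418 CPM in neurons, against 67.1 and 33.6 CPM over the others (3.68 ± 0.23, adjusted p = 1.12e-54). Cdh18 stood at 1719 and 1437 CPM in neurons, against 328 and 125 CPM over the others (3.71 ± 0.25, adjusted p = 5.39e-49). Cdh9 stood at 71.3 and 72.7 CPM in neurons, against 10.7 and 5.30 CPM over the others (3.73 ± 0.38, adjusted p = 1.96e-21). Cdh7 differed by 3.31 ± 0.31 (adjusted p = 9.34e-25) and Cdh13 by 3.07 ± 0.24 (adjusted p = 3.31e-35). In oligodendrocytes Cdh18 stood at 1.49% and 1.98% and Cdh12 at 3.31% and 0% of their neuron level, at or under the leaked share there. In astrocytes Cdh18 stood at 25.9% and 3.19% and Cdh4 at 22.4% and 4.32%, which in library 2 was under the leaked share of 11.9%.

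Among the other neuron calls, Pcdh8 (4.04 log2, adjusted p = 0.0201) rested on 49 and 36 UMIs in neurons and was lost when scaled by totals alone (adjusted p = 0.0759). Pcdh19, a delta-2 protocadherin whose human gene is an epilepsy gene, stood at 148 and 114 CPM in neurons, against 50.1 and 26.5 CPM over the others (2.38 ± 0.25, adjusted p = 4.68e-20). Cdh8 was 1.86- and 2.67-fold above the pooled other classes, Pcdh15 1.67- and 1.53-fold and Pcdh17 1.26- and 1.51-fold. Cdh11 (1.03- and 1.09-fold), Cdh22 (0.988- and 1.11-fold), Cdh6 (0.899- and 1.95-fold), Pcdh1 (2.02- and 0.944-fold) and Pcdh10 (0.738- and 0.854-fold) were called higher in neurons although they were not clearly above the pooled other classes in both libraries. Pcdh18, Cdh24 and Pcdh8 did not pass the test over all classes (adjusted p = 0.961, 0.0568 and 0.180), with 66, 71 and 89 UMIs in all.

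Set beside all genes, the members' median log2 difference was 2.18 in neurons (1.03 over all genes tested), 1.10 in astrocytes (0.34), -0.06 in tanycytes (-0.17), 1.48 in precursors (-0.03), -1.24 in oligodendrocytes (-0.00) and -2.81 in microglia (-0.88). Fitted values of genes at 0 in a class depend on the fit. With every sum of both libraries under 3 counts set to 3, the medians were 0.36 in neurons (-0.69 over all genes), -0.14 in astrocytes (-0.51), 0.12 in tanycytes (0.64), 0.88 in precursors (0.13), -1.26 in oligodendrocytes (-0.57) and -0.36 in microglia (1.43). The astrocyte and tanycyte medians thus differ in sign between the calculations. Scaling by totals alone moved the median of all genes by -0.32 in neurons, 0.40 in microglia, 0.30 in tanycytes, -0.21 in oligodendrocytes, -0.18 in astrocytes and -0.11 in precursors.

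Partner genes of cadherins were counted in the same way, and the shares of all genes called are those given above for each class (in neurons 27% higher and 3.48% lower). Of 15 catenin and junction genes, 8 were higher and 2 lower in neurons, 6 and 1 in precursors, 7 and 3 in oligodendrocytes, 4 and 2 in astrocytes, 1 and 2 in tanycytes and 0 and 6 in microglia. Alpha-catenins, which link cadherins to actin, were each called higher in several classes and lower in others. Ctnna1 stood at 316 and 117 CPM in tanycytes, 186 and 166 CPM in astrocytes, 149.5 and 123 CPM in oligodendrocytes and 32.5 and 31.0 CPM in neurons. It was higher in the first 3 (log2 1.35, 1.28 and 0.88) and lower in neurons (-1.49, adjusted p = 2.32e-08) and in precursors. Ctnna2 stood at 2429.7 and 2138 CPM in precursors, against 2125 and 2087 CPM in neurons, and both classes were called higher (log2 1.90 and 2.05). Oligodendrocytes were also called higher for Ctnna2, and tanycytes and microglia lower. Ctnna3 was higher in oligodendrocytes (log2 2.52, adjusted p = 3.30e-20), and also in neurons and precursors, and lower in astrocytes and microglia. The delta-catenin Ctnnd2 was higher in astrocytes (2513 and 2674 CPM, against 1271 and 1421 CPM in neurons, log2 2.31, adjusted p = 2.21e-15). Neurons and precursors were also called higher for Ctnnd2, and tanycytes, oligodendrocytes and microglia lower.

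Of 18 tested genes of other cadherin branches, 9 were higher in neurons, 4 in astrocytes, 4 in tanycytes, 2 in precursors and 0 in oligodendrocytes and microglia, which had 1 and 2 lower. Fat3, a giant cadherin of the Fat branch, stood at 1628 and 1971 CPM in tanycytes and 1083 and 1285 CPM in astrocytes, against 29.2 and 4.75 CPM in oligodendrocytes, and all 3 were called (log2 2.12, 1.90 and -5.24). Clstn2, a calsyntenin of synapses, was higher in neurons (log2 5.28, adjusted p = 6.65e-63). Of 46 tested clustered protocadherins, 1 was higher in each of astrocytes, tanycytes and precursors and none was called in neurons, oligodendrocytes or microglia. These were Pcdhb14 in astrocytes and tanycytes and Pcdhb9 in precursors. In neurons the median log2 difference of the 46 was 1.82, beside 1.03 over all genes, so the absence of calls does not show equal levels. How well 3′ counts tell the genes of these clusters apart was not tested. Of 9 WAVE complex genes, 3 were higher and 2 lower in microglia, with Cyfip1 among the higher (log2 2.36, adjusted p = 2.22e-12), and 3 were higher and 1 lower in neurons, near the share of all genes called higher there. Astrocytes and precursors each had 3 higher and 0 lower, with Cyfip1 higher in astrocytes too. Oligodendrocytes had 2 higher and 1 lower (Cyfip1), and tanycytes 0 and 0. Of 7 genes for proteases that cleave cadherins, which is too few to set against the share of all genes, 3 were higher in oligodendrocytes (Psen2, Aph1a and Adam10), 1 in neurons, 1 in microglia and 0 in the other classes.

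Neurons were clustered again alone into 24 groups, and the 17 with at least 20 nuclei in each library were compared. Of the 26 members, 20 differed between these groups by edgeR's quasi-likelihood test, beside 17.2% of 16421 genes. The 6 others were Cdh19, Pcdh18, Cdh24, Pcdh8, Pcdh20 and Pcdh1, of which all but Cdh24 had 1 group call. Set against the average of the other groups, members gave 139 calls of 442 (95 higher and 44 lower), beside 3.63% of all gene and group pairs, and without the library block 76 calls. Of the 139, 124 lay on the same side of the pooled other groups in both libraries. Groups are named by leading genes. A group at 0 UMIs lifts the log average of the others. Of the calls, 25 were of 8 members that had such a group, and 20 of these 25 lay on the same side of the pooled other groups in both libraries. Counts per group ranged from 2 to 10 members higher and from 0 to 9 lower. Cdh10 (13 groups), Pcdh7 (12), Cdh13, Cdh8 and Cdh18 (10 each), Pcdh15 and Cdh4 (9 each) were called most often.

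**Figure D3:**
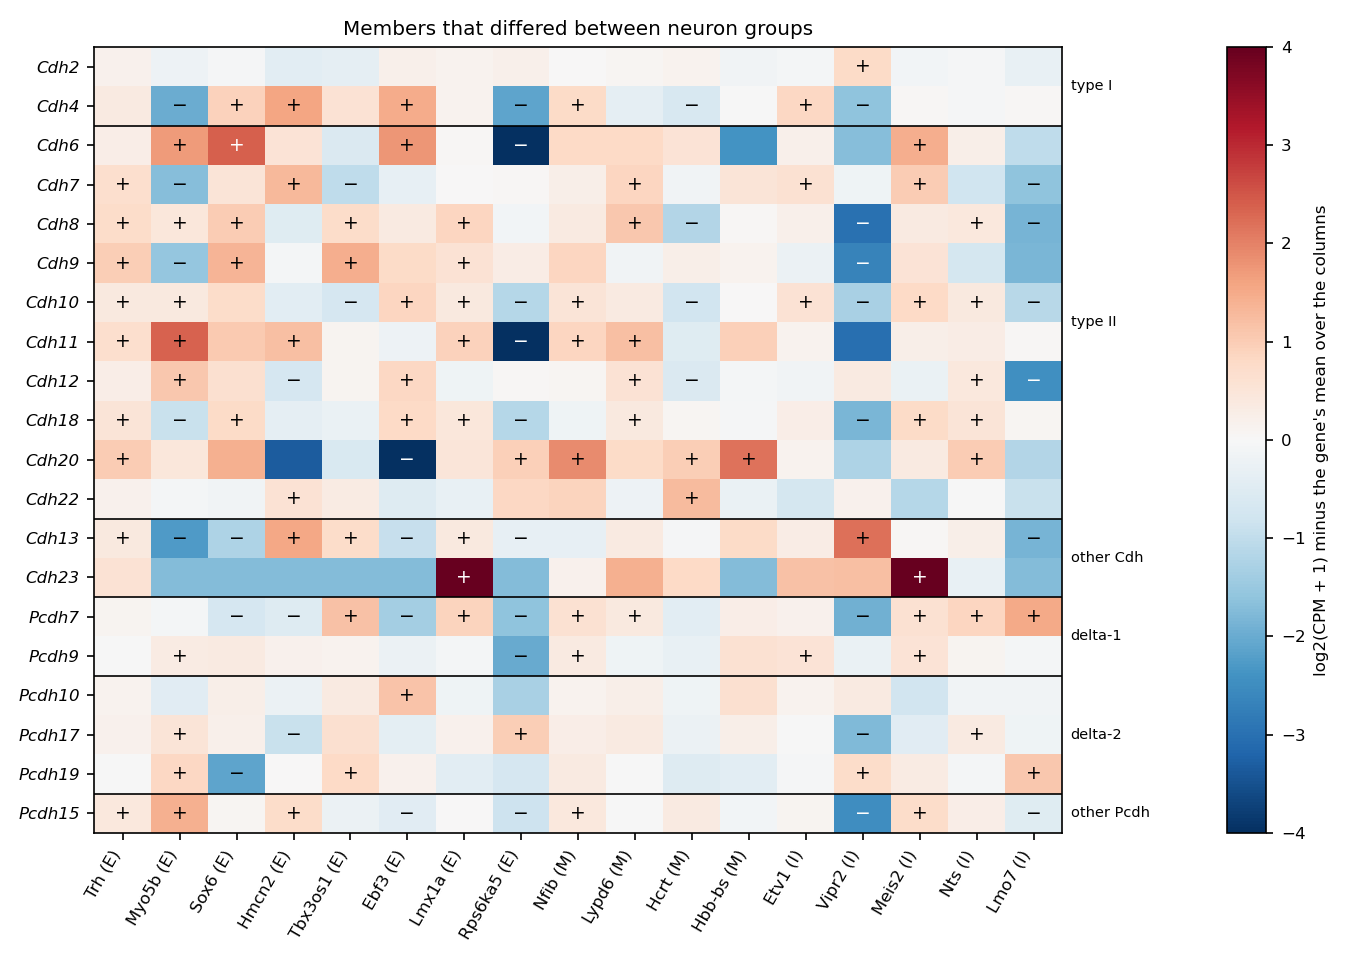
Colour gives log2(CPM + 1) of each of 20 members in each of 17 neuron groups (mean of 2 libraries) minus that member's mean over the groups. Columns carry 1 leading gene and E for Slc17a6-led, M for mixed and I for Slc32a1-led groups, and a plus or minus marks a call against the average of the other groups. The Vipr2 and Rps6ka5 columns hold 8 and 9 minus signs.

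Cdh13 ranged between groups from 61.7 to 1387 CPM (means of 2 libraries). It stood at 1472 and 1302 CPM in the Vipr2 and Prok2 group, against 329 and 417 CPM in the other groups pooled (4.48- and 3.12-fold, log2 2.34 ± 0.13, adjusted p = 6.38e-69). It stood at 753 and 1030.1 CPM in the Hmcn2 group, against 313 and 399.9 CPM (1.76 ± 0.12, adjusted p = 5.65e-47). It fell to 83.1 and 40.3 CPM in the Myo5b and Sall3 group, against 387 and 472 CPM (-2.03 ± 0.21, adjusted p = 6.33e-20). In both libraries the Vipr2 and Hmcn2 groups were the highest and the Myo5b group the lowest. The Lmo7 and Sst group (85.7 and 78.6 CPM), the Sox6 and Col18a1 group (153 and 102 CPM) and the Ebf3 and Synpr group (109 and 209 CPM) were also called lower.

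The Vipr2 and Prok2 group, Slc32a1-led, carried 3 members higher (3.74% of all genes) and 8 lower (2.75%). Beside Cdh13, it held more Cdh2, at 741 and 775 CPM, against 446 and 434 CPM in the other groups (0.75 ± 0.15, adjusted p = 2.62e-05), the only group in which Cdh2 was called. Pcdh19 was the third (0.74 ± 0.22, adjusted p = 0.0161), a call lost in the transplanted-labelled matrices (adjusted p = 0.228) and without the block (0.203). Pcdh15 fell to 312 and 198 CPM, against 1937 and 1816 CPM in the other groups (-2.64 ± 0.20, adjusted p = 8.99e-36). Pcdh7 fell to 470.1 and 165 CPM, against 1829 and 1334 CPM (-2.04 ± 0.19, adjusted p = 7.67e-24). Cdh18 fell to 557 and 247 CPM, against 1808 and 1519 CPM (-1.92 ± 0.18, adjusted p = 4.23e-23). For all 3 genes this group held the lowest or second lowest level in both libraries. The other lower members were Cdh8, Cdh9, Cdh10, Cdh4 and Pcdh17. In the Vipr2 group the 12 tanycyte markers, 6 of them with UMIs, summed to 1400 and 1368 CPM, against 102 to 1162 CPM in the other groups. Its 14 oligodendrocyte markers summed to 434 and 371 CPM. Cdh2 was high in both of those glial classes, and the part of glial RNA in its level here was not tested.

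The Myo5b and Sall3 group, Slc17a6-led, carried 10 members higher (6.53% of all genes) and 5 lower (2.86%). Cdh11, OB-cadherin of type II, stood at 346 and 496 CPM there, against 105 and 131 CPM in the other groups (3.29- and 3.77-fold, 2.77 ± 0.16, adjusted p = 3.75e-62). Pcdh15 stood at 3534 and 4073 CPM, against 1741 and 1607 CPM (1.67 ± 0.11, adjusted p = 1.97e-48). Cdh6 stood at 93.7 and 125 CPM, against 40.2 and 50.5 CPM (2.05 ± 0.26, adjusted p = 1.38e-13). Cdh11 and Pcdh15 reached their highest level of the 17 groups here in both libraries. Cdh4 (44.2 and 36.3 CPM, against 159.9 and 288 CPM, -1.74 ± 0.25, adjusted p = 1.11e-10) and Cdh7 (37.1 and 8.06 CPM, against 95.7 and 106 CPM, -1.29 ± 0.29, adjusted p = 2.33e-04) were lower. The Hmcn2 group, also Slc17a6-led, carried 6 members higher (6.94%) and 3 lower (1.07%) and stood opposite for these 2 genes. Cdh4 was at 310.3 and 657 CPM there, against 130.3 and 243 CPM (1.72 ± 0.13, adjusted p = 2.64e-35), and Cdh7 at 175 and 203 CPM, against 80.3 and 91.7 CPM (1.52 ± 0.16, adjusted p = 4.12e-19). Its lower members were Pcdh17 (-0.79 ± 0.17), Cdh12 (-0.64 ± 0.15) and Pcdh7 (-0.41 ± 0.14), all lost without the block.

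**Figure D4:**
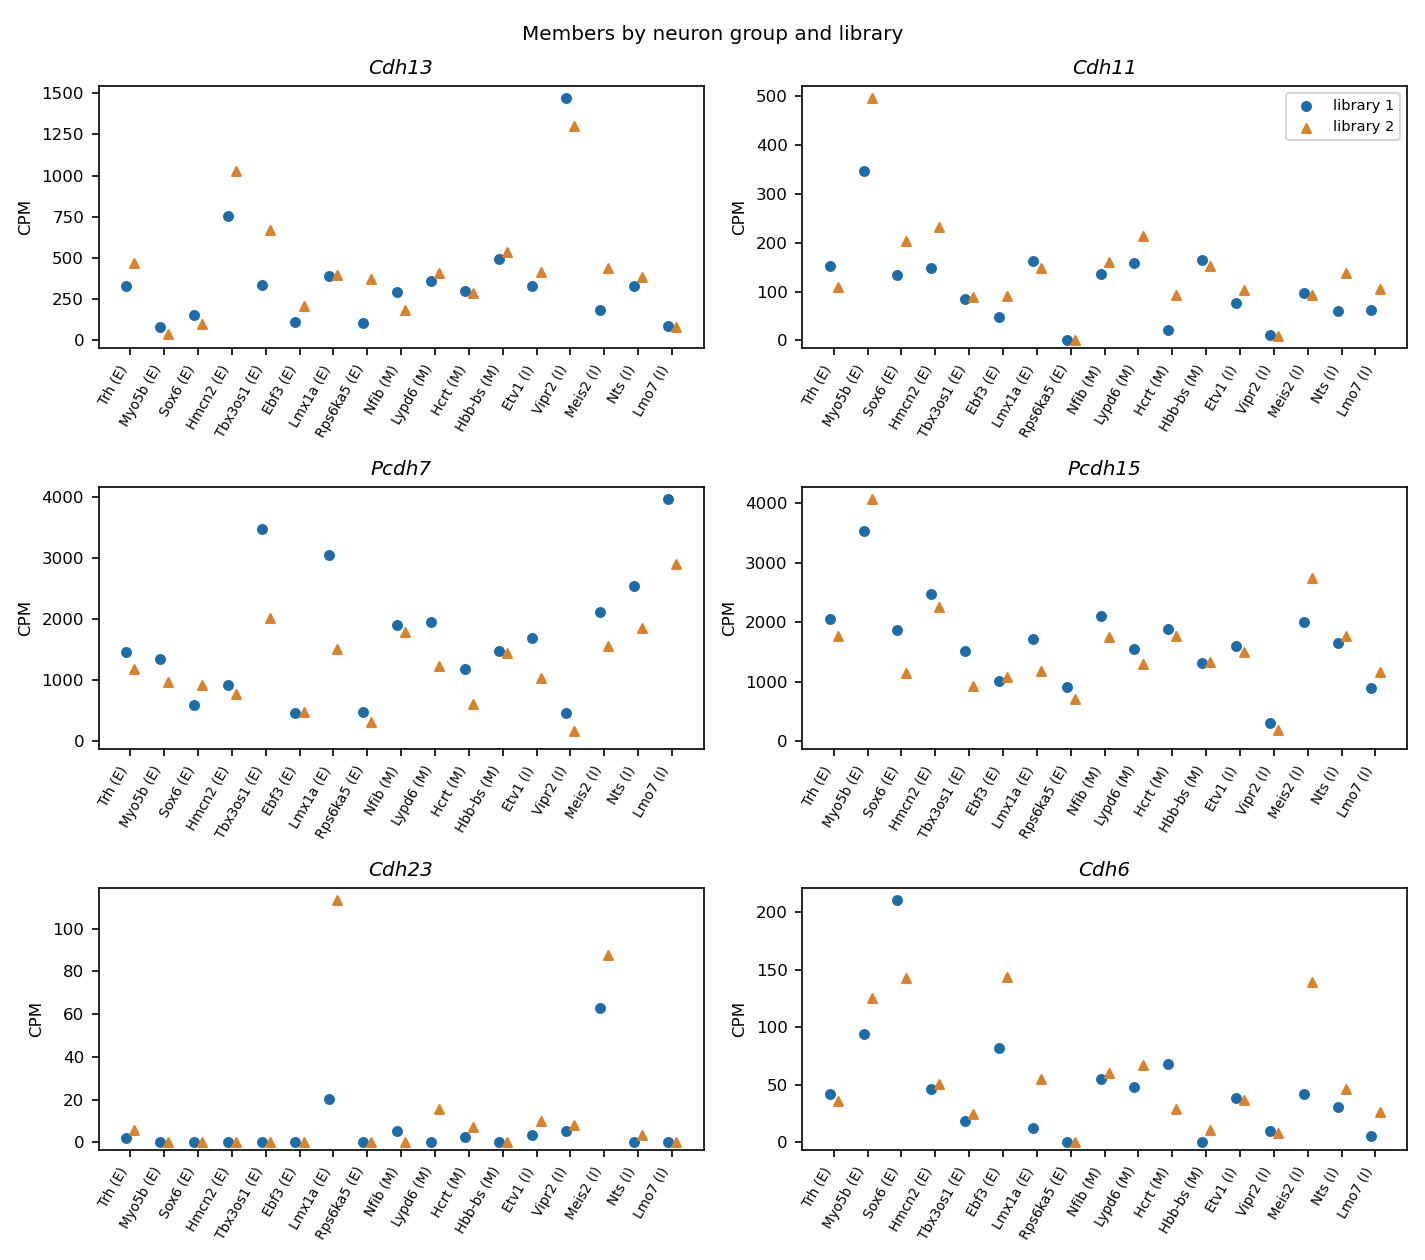
Each panel gives the CPM of 1 member in 17 neuron groups, named by 1 leading gene, with a circle for library 1 and a triangle for library 2. E, M and I stand for Slc17a6-led, mixed and Slc32a1-led groups. Cdh13 peaks in the Vipr2 group, Cdh11 and Pcdh15 in the Myo5b group, and Cdh23 in the Lmx1a and Meis2 groups.

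The Rps6ka5 and Rorb group, Slc17a6-led with 72 and 20 nuclei, carried 2 members higher (1.07% of all genes) and 9 lower (1.13%). Pcdh9 fell to 609 and 672 CPM, against 2915 and 2820.4 CPM in the other groups (-2.35 ± 0.20, adjusted p = 1.40e-28), and this was the only group in which Pcdh9 was called lower. Cdh11 had 0 UMIs in both libraries, which is at least 6.31-fold lower than the other groups in library 1 and 2.25-fold in library 2, taking 3 counts per library as the floor. Cdh6 also had 0 UMIs, at least 2.25-fold lower in library 1, and in library 2 the level of the other groups, 55.9 CPM, was under the floor of 69.5 CPM. Pcdh7 (481 and 324 CPM, against 1819 and 1309 CPM) and Cdh18 (548 and 742 CPM, against 1799 and 1487 CPM) were lower as well. Pcdh17, a delta-2 protocadherin, was higher (582 and 417 CPM, against 276 and 263 CPM, 0.91 ± 0.20, adjusted p = 3.82e-04), a call lost without the block (adjusted p = 0.0580). Cdh20 was called higher (1.39 ± 0.42, adjusted p = 0.0399) on 20 UMIs in library 1 and 1 in library 2, where the sign was the opposite.

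Pcdh7, a delta-1 protocadherin, was called in 12 groups. It stood at 3979 and 2909.8 CPM in the Lmo7 and Sst group, against 1663 and 1265 CPM in the other groups (1.58 ± 0.12, adjusted p = 9.10e-36). In the Tbx3os1 and Esr1 group it stood at 3479 and 2019 CPM, against 1719.8 and 1274 CPM (1.12 ± 0.12, adjusted p = 1.67e-16). The Nts and Gal group (2539.5 and 1858 CPM, 1.01 ± 0.12, adjusted p = 6.20e-15) and the Lmx1a group were also higher, and the Ebf3 and Synpr group was lower (472 and 483 CPM, -1.55 ± 0.20, adjusted p = 8.34e-13). The Lmo7 and Sst group carried 2 members higher (2.28% of all genes; Pcdh7 and Pcdh19) and 6 lower (0.542%). Its lower members were led by Cdh12, at 99.1 and 39.3 CPM, against 454 and 432 CPM (-2.28 ± 0.24, adjusted p = 1.42e-18), and Cdh8, at 129 and 26.2 CPM, against 353 and 400.3 CPM (-1.42 ± 0.23, adjusted p = 1.46e-07).

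Among neurons, Cdh23 was called higher in 2 groups. The Meis2 group had 15 and 17 UMIs (62.7 and 87.5 CPM), against 2.89 and 13.3 CPM in the other groups (21.7- and 6.57-fold, adjusted p = 3.36e-20). The Lmx1a and Ebf2 group had 10 and 33 UMIs (20.2 and 113 CPM), against 3.81 and 9.21 CPM (5.30- and 12.3-fold, adjusted p = 1.07e-21). In 8 of the other groups Cdh23 had 0 UMIs in both libraries. Vsir, on the other strand, had 4 and 5 UMIs over all neurons. The Meis2 group carried 8 members higher (1.69% of all genes) and 0 lower (0.28%), the Lmx1a group 8 higher (3.97%) and 0 lower (0.268%).

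The Sox6 group carried 5 members higher (0.993% of all genes) and 3 lower (0.974%), and the Tbx3os1 group 5 higher (1.94%) and 2 lower (1.15%). The Ebf3 group carried 6 higher (1.44%) and 4 lower (0.755%), and the Hcrt group 2 higher (2.2%) and 4 lower (0.463%). The largest positive difference was that of Cdh6 in the Sox6 and Ebf3 groups, Cdh9 in the Tbx3os1 group and Cdh22 in the Hcrt group. Cdh6 had 22 and 7 UMIs in the Sox6 and Col18a1 group (210.2 and 143 CPM), against 42.1 and 54.1 CPM in the others (2.65 ± 0.40, adjusted p = 8.30e-09), its highest level of all groups in library 1 and close to the highest in library 2. Cdh9 was higher in the Tbx3os1 and Esr1 group (162 and 138 CPM, against 61.1 and 64.2 CPM, log2 difference 1.40 ± 0.25, adjusted p = 1.56e-06) and in the Trh and Sim1 group (101 and 114 CPM, against 58.8 and 56.7 CPM, 1.06 ± 0.16, adjusted p = 1.82e-08). The Trh and Sim1 group carried 10 members higher (4.09% of all genes) and 0 lower (0.134%). Cdh8 was higher in the Lypd6 group (509 and 684 CPM, against 330.4 and 373 CPM, 1.16 ± 0.14, adjusted p = 1.64e-14), and lower in the group led by Hcrt, the orexin gene (108 and 144 CPM, against 356 and 402 CPM, -1.33 ± 0.21, adjusted p = 6.47e-08). The Hcrt group held more Cdh22 (61.2 and 101 CPM, against 22.3 and 44.7 CPM, 1.43 ± 0.30, adjusted p = 2.59e-04). This mixed group held 235 nuclei and was also led by Lef1, Rfx4 and Gal. With doublets kept, clusters led by Hcrt and by Lef1 held 42 and 51 nuclei, so its values cannot be read as those of orexin neurons alone. In the Ebf3 and Synpr group Cdh4 (301 and 614 CPM, against 147 and 265 CPM, 1.45 ± 0.21, adjusted p = 9.57e-10) and Cdh6 (82.0 and 144 CPM, 1.78 ± 0.42) were higher. Pcdh10 was also higher there (144 and 209 CPM, against 73.0 and 84.0 CPM, 1.04 ± 0.29, adjusted p = 0.0192), the only group in which it was called, and a call lost without the block (adjusted p = 0.0905). Cdh20 had 0 UMIs in that group, at least 3.01-fold and 1.68-fold lower in libraries 1 and 2.

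In other groups members were called only higher: 7 in the Nfib group (2.01% of all genes, 0.207% lower), 6 in the Lypd6 group (1.98%, 0.25% lower), 6 in the Etv1 and Ddc group (2.62%, 0.286% lower), 7 in the Nts group (2.7%, 0.183% lower) and 2 in the Hbb-bs group (1.61%, 0.585% lower). In the Etv1 group, Slc32a1-led with the most nuclei, Pcdh9 (3956 and 3530.2 CPM, against 2697 and 2710.1 CPM, 0.62 ± 0.12, adjusted p = 6.03e-05) and Cdh10 (407 and 338 CPM, against 295 and 267 CPM, 0.66 ± 0.13, adjusted p = 7.35e-05) were among them. Among neurons, Cdh20 was higher in the Nfib and Nfia group (142 and 160.1 CPM, against 55.8 and 58.5 CPM, 2.11 ± 0.24, adjusted p = 2.85e-15) and in the Hbb-bs and Ptgds group (165 and 207 CPM, against 59.9 and 61.1 CPM, 2.26 ± 0.42, adjusted p = 1.18e-05). Nuclei of the Hbb-bs group had a median of 920.5 UMIs. Its 12 astrocyte markers summed to 2079 and 1383 CPM and its 14 oligodendrocyte markers, all with UMIs, to 957 and 1122 CPM, against 40.8 to 1318 and 41.8 to 434 CPM in the other groups. The Nfib group's oligodendrocyte markers summed to 210.4 and 268 CPM. Cdh19 was called higher in the Hbb-bs group too (0 and 4 UMIs, 4.99 ± 1.27, adjusted p = 0.00691). The part of glial RNA in these values was not tested. Without the Hbb-bs group, 20 members still differed between groups and 142 calls were made.

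Profiles over the 17 groups were alike in both libraries for most of the 20 members. Pearson's r between libraries, on log2 CPM with values under 1 set to 1, had a median of 0.823, from 0.177 for Cdh2 to 0.950 for Cdh11. Over 190 pairs of members the median r of the library means was 0.137. By the means of both libraries, the 3 pairs most alike were Cdh11 with Pcdh9 (r = 0.847), Cdh8 with Cdh9 (0.804) and Cdh8 with Cdh10 (0.756). The first rested on the Rps6ka5 group, without which r was 0.483, while the others kept at least 0.656 and 0.676 when any 1 group was left out. The most opposed pair was Pcdh15 with Cdh2 (-0.658), and leaving out 1 group brought it to -0.247 at the nearest to 0. The order depends on the measure: with the first gene read from library 1 and the other from library 2, Cdh11 with Pcdh9 stayed first (0.799), Cdh11 with Cdh6 (0.784) and Cdh8 with Pcdh17 (0.736) came next, and Cdh9 with Pcdh19 was the most opposed (-0.566). Pairs of the same family (51) had a median r of 0.276, and the rest 0.0794. These are descriptions over 17 groups that share 2 libraries and their depths.

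Neuron groups were split by their vesicular transporter. In 12 Slc17a6-led groups (2058 nuclei), the transporter of glutamate exceeded that of GABA and glycine at least 3-fold, in 7 Slc32a1-led groups (1566 nuclei) the reverse held, and 5 mixed groups were left out. The Slc17a6-led neurons carried 8 members higher (2.77% of all genes) and 2 lower (1.72%), and all 10 had the same sign in each library. Those signs come from the libraries that gave the calls, so they are no independent check. These calls rest on the library block and on 2 sums a side: without the block edgeR called 0 members, and DESeq2 called 2. The members' median log2 difference was 0.18, beside 0.00 over all genes.

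Cdh9 stood at 93.2 and 98.7 CPM in Slc17a6-led neurons, against 39.5 and 37.4 CPM in Slc32a1-led neurons (log2 1.34 ± 0.13, adjusted p = 6.27e-08). Cdh11 stood at 155 and 175 CPM in Slc17a6-led neurons, against 60.5 and 105 CPM in Slc32a1-led neurons (1.10 ± 0.12, adjusted p = 4.95e-07). Cdh6 stood at 52.2 and 60.9 CPM in Slc17a6-led neurons, against 25.6 and 49.0 CPM in Slc32a1-led neurons (0.73 ± 0.17, adjusted p = 0.00668). In each library the Slc17a6-led value was the higher one, and for Cdh6 the Slc17a6-led value of library 1 and the Slc32a1-led value of library 2 were close. Cdh8 stood at 383 and 391 CPM in Slc17a6-led neurons, against 221 and 351 CPM in Slc32a1-led neurons (0.52 ± 0.10, adjusted p = 0.00182). Pcdh15 (0.42 ± 0.08, adjusted p = 8.98e-04) and Cdh12 (0.41 ± 0.09, adjusted p = 0.00263) were higher by less. The calls of Cdh7 (0.40 ± 0.11, adjusted p = 0.0389) and Pcdh17 (0.33 ± 0.09, adjusted p = 0.0375) were each lost under 4 other settings beside the block.

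Both delta-1 protocadherins with high counts ran the other way. Pcdh7 stood at 1664 and 1142 CPM in Slc17a6-led neurons, against 2227 and 1506 CPM in Slc32a1-led neurons (-0.38 ± 0.06, adjusted p = 2.96e-04). Pcdh9 stood at 2742 and 2524 CPM in Slc17a6-led neurons, against 3372 and 3145 CPM in Slc32a1-led neurons (-0.27 ± 0.06, adjusted p = 0.00524), a call lost at a coarser clustering (adjusted p = 0.171) and with a transporter ratio of 2 (adjusted p = 0.0702). For Pcdh9 both Slc17a6-led values lay under both Slc32a1-led values, and for Pcdh7 the libraries overlapped. Cdh4 (0.29 ± 0.09, adjusted p = 0.0557) and Cdh18 (-0.02 ± 0.08, adjusted p = 0.951) were among the 16 members not called, whose log2 differences lay between -0.34 and 0.61.

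**Figure D5:**
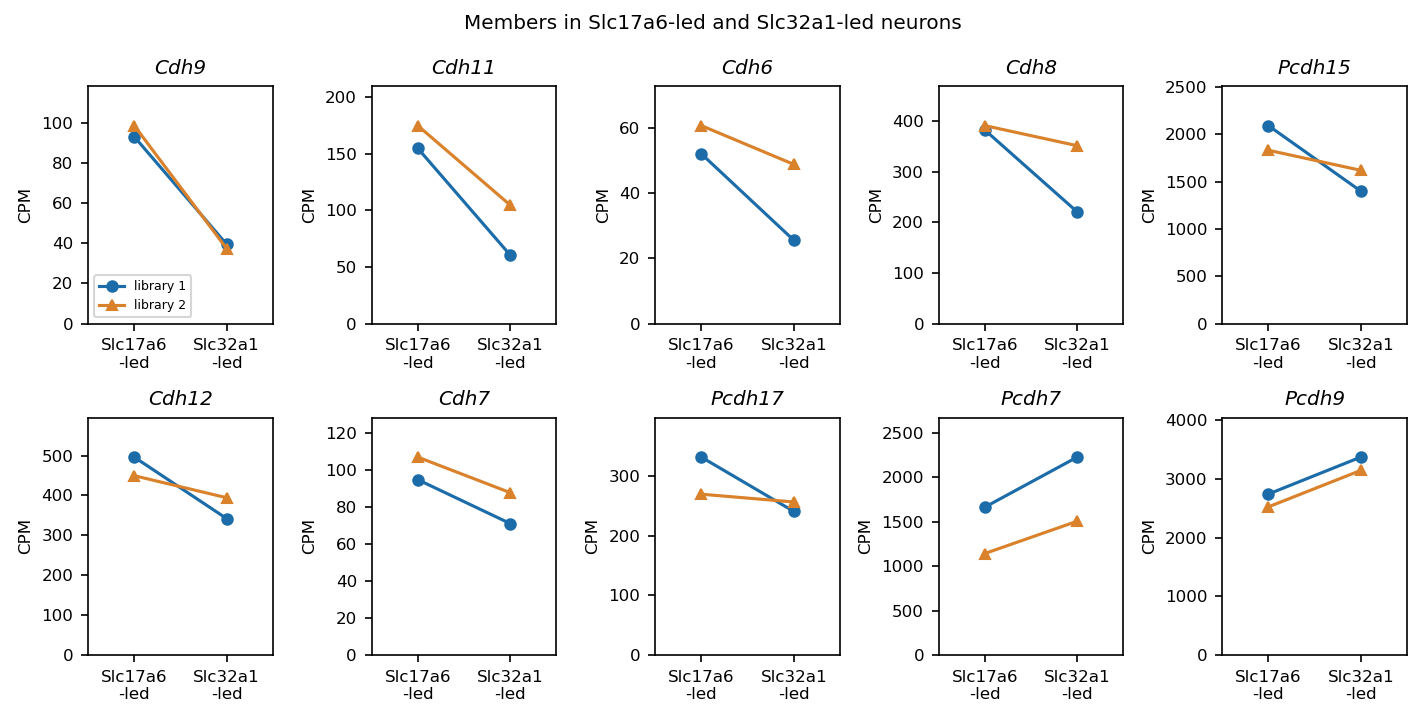
Each panel gives the CPM of 1 of the 10 called members in Slc17a6-led neurons (left) and Slc32a1-led neurons (right), with a line joining the values of 1 library, and each axis starts at 0. In both libraries Cdh9 and Cdh11 are higher on the left, and Pcdh7 and Pcdh9 are higher on the right.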

How the data were processed

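Nuclear RNA of 4 frozen mouse hypothalamus samples was profiled with Chromium 3′ v3.1 chemistry, per the labels' protocols. The authors deposited raw UMI counts per gene and nucleus, made with Cell Ranger 5.0.1 per the file headers. The submitters' processing notes name build GRCh38, the gene IDs are mouse IDs, and neither source states the mouse build, the use of strand or how barcodes were chosen. The deposited barcodes all passed filters of at least 300 genes and at most 5% mitochondrial UMIs. Scrublet marked 48 of 6158 nuclei (0.779%) as doublets, which were removed. In library 1 it marked 0.150%, so it did not work there, and doublets may remain.

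Nuclei were clustered with scanpy 1.11.5 (3000 variable genes without Cdh or Pcdh genes, 40 components, 20 neighbours, Leiden resolution 1). Glial clusters were named by at least 3 markers of the class among their 30 leading genes. Neuron clusters were those with at least 6 of 12 neuron markers above 2 times the glial mean and few leading markers of other classes. UMIs were summed per class or neuron group and library. edgeR 4.0.16 (R 4.3.3) fitted quasi-likelihood models over all genes with at least 10 UMIs, with TMM normalization, the library as a block in comparisons between classes and groups, and Benjamini-Hochberg adjustment at 0.05. Depth bears on precision: classes held from 31785 to 7717271 UMIs per library. Floors are 3 counts per library and cover counting error only. On simulated data with 200 genes changed 4-fold, the fit recovered 67% for astrocytes against the other classes (17301 genes), 98% between Slc17a6-led and Slc32a1-led neurons (16421 genes) and 98% between the labels (17301 genes). The changed genes were drawn from those with at least 200 UMIs, all other genes were equal, and the spread was fixed without a library effect. These shares therefore do not give the power for members with fewer UMIs, such as Cdh23 (155), or for labels that hold the same nuclei.

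Named were, per class, up to 6 called members per direction with the largest log2 difference, per neuron group up to 3 with at least 20 UMIs there, and others that carry a comparison, chosen after their values were seen. The members and gene lists were chosen with earlier results of these data known. Same-numbered samples of both labels deviated together (r = 0.968 over 10883 genes), since they hold the same nuclei. The alternatives were DESeq2 1.42.0 and its size factors, scaling by totals, other count filters, no block, the transplanted-labelled matrices, other clusterings, doublets kept and each library left out.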

Additional observations from a re-analysis of the deposited data

How the results depend on the processing

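Between classes, 21 to 24 members (23 as reported) and 67 to 77 of the per-class calls (76) passed under every alternative run, and between neuron groups 17 to 21 members (20). Calls for partner genes numbered 84 to 109 (107). Without the replicate block, calls per neuron group numbered 76 (139), and between Slc17a6-led and Slc32a1-led neurons 0 members (10), 0 higher (8) and 0 lower (2). With the replicate block, the comparison of labels still called 0 members, as did every other alternative, including each library left out (0 to 0). DESeq2 called 2 members between the transmitter kinds. Members lower in these Slc17a6-led neurons numbered 1 at Leiden resolution 0.5 and 1 at a transporter ratio of 2. Members lower in astrocytes numbered 1 (2) with edgeR's own filter, without the block and in the transplanted-labelled matrices. Leaving out 1 library gave Cdh20 in the Rps6ka5 group values from -0.76 (without library 1, where 1 UMI was left) to 2.26. For these changes the cause was not tested, beside the lost block. With 1 library left, comparisons of classes and groups had no test, and their values were checked for sign only. Without the Hbb-bs and Ptgds group, an alternative chosen after seeing the data, per-group calls numbered 142. Depth limits microglia and tanycytes most, where 3 counts were 24.9 to 94.4 CPM.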
